A study of Homo sapiens with 4 samples.

Results

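The 10 human imprinted genes described here are the transcription factor gene PLAGL1 and its overlapping non-coding RNA HYMAI, the paternally expressed protein genes PEG10, MEST, PEG3 and NNAT, the chromosome 11 non-coding RNAs H19 and KCNQ1OT1, and the chromosome 14 neighbours DLK1 and MEG3. They were chosen by name, as the rows of the deposited count tables that carry these symbols, and all 10 were found, with 1 row each, among 36601 rows. Their levels were taken over 22599 cells that had at least 4000 unique molecular identifiers (UMIs, which count each captured RNA molecule once), at least 1000 detected genes and at most 20% mitochondrially encoded UMIs. Of the 10 genes, 9 had UMIs in all 4 libraries and PEG3 had none in any.

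All cells came from H9, an established line of human embryonic stem cells, and their RNA was read at transcript 3′ ends, cell by cell in droplets. The groups were SIRT1 knockout cells at day 6, wild-type cells at day 6, SIRT1 knockout cells at day 0 and wild-type cells at day 0 of differentiation towards dopaminergic neurons, with 1 library each. SIRT1 removes acetyl groups from proteins in a reaction that uses NAD, and the series, by its title, asks how SIRT1 bears on metabolism and differentiation of stem cells. The labels give mTeSR1 medium on Geltrex for maintenance of all cells. The part of SIRT1 that was deleted, the number of knockout clones and the agents of the differentiation protocol are not given in the sources used here. Each group is 1 library, so differences are given without a test and without a check in replicates.

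An imprinted gene is read mainly from the copy inherited from a single parent, because DNA methylation set in the egg or sperm marks the parental copies differently. Imprinted genes lie in domains that share a control region, and often pair a growth or developmental protein gene with a long non-coding RNA. Many are active in embryo and placenta and in the developing brain. UMI counts add up both parental copies, so nothing below measures the imprint itself.

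Start regions of the PLAGL1 domain, of H19 and of MEG3 are shown as examples, and those of MEST are not shown. RefSeq (GRCh38.p14) held start windows for 5 of the 10 genes, namely PLAGL1, HYMAI, MEST, H19 and MEG3. Each sequence gives the 250 bases before a start annotated by RefSeq, 5′ to 3′ on the gene's strand. GENCODE, from which the gene spans below were taken, sets the outer ends of H19 and MEG3 further upstream, so most of the H19 window and all of the MEG3 window lie inside those spans. Capitals mark TGCCGC or its complement, the core of the motif bound by ZFP57, a zinc finger protein that keeps methylation at imprinted control regions, and TATAAA or its complement, the TATA box.
PLAGL1 and HYMAI, shared start, chr6:144008260-144008509, minus strand: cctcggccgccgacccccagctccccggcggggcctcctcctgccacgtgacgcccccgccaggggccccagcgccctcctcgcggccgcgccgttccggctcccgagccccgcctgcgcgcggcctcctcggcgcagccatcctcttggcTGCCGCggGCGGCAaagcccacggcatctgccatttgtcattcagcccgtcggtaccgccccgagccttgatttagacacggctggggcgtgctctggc
PLAGL1, most upstream start, chr6:144064600-144064849, minus strand: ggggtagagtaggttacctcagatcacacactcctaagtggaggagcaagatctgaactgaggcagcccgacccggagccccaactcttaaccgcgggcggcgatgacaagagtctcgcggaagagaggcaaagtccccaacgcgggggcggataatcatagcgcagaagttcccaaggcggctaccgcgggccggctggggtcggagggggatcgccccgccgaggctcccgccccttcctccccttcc
H19, chr11:2001267-2001516, minus strand: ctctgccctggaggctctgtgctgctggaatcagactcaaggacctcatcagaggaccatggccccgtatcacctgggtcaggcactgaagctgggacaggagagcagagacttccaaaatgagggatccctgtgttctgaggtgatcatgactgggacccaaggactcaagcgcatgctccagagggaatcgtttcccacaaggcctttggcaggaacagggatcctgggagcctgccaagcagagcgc
MEG3, chr14:100825858-100826107, plus strand: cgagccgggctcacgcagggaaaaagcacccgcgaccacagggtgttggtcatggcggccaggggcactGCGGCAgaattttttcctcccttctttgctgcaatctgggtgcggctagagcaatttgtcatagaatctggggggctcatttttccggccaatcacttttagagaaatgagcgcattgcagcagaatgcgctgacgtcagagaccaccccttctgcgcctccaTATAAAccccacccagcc

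PLAGL1 and HYMAI had an identical start window, with 32 CG dinucleotides, more than 90.5% of all 34943 RefSeq windows of this length hold. That window held TGCCGC or its complement 2 times, which 1.69% of all windows do at least, while 12.7% of all windows hold it at least 1 time. The most upstream PLAGL1 window had 21 CG dinucleotides and neither motif. The MEG3 window had 13 and held both motifs 1 time each, and TATAAA or its complement stood in 10.8% of all windows. The H19 window had 4 CG dinucleotides and neither motif, which says only that these letters are not in this stretch. A motif match is a description of the letters and no evidence of binding.

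After filtering there were 4419 knockout and 5372 wild-type cells at day 6, and 7275 knockout and 5533 wild-type cells at day 0. Median UMIs per cell were 13169 in knockout and 8590 in wild-type cells at day 6, and 8367 in knockout and 12645 in wild-type cells at day 0, so shares of cells with a UMI are given after thinning each cell to 4000 UMIs. The summed cells held 51424092 to 73451883 UMIs per library, and libraries shared 5 to 18 cell barcodes, at most 0.325% of a library's cells. SIRT1 stood at 9.95 CPM (UMIs scaled to 1000000 per library) in knockout cells and 30.2 CPM in wild-type cells at day 6, and at 7.11 CPM in knockout cells and 32.3 CPM in wild-type cells at day 0. Whether the 3′ tags lie inside the deleted part is not given, so this lower level is only a partial check of the labels. Of 10 pluripotency markers, 9 reached 10 CPM in both day 0 libraries, and their summed level was 945 CPM in knockout and 832 CPM in wild-type cells at day 6, against 2884 CPM in knockout and 3491 CPM in wild-type cells at day 0. Genes of chromosome 20, where NNAT lies, were lower as a set in part of the knockout cells: the median share of UMIs from that chromosome was 2.40% in knockout and 3.24% in wild-type cells at day 6, and 2.51% in knockout and 3.44% in wild-type cells at day 0.

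Levels are CPM of the summed cells of a library, and a range in brackets is an exact 95% interval that covers counting error only and compares libraries, not conditions. Genes with 10 CPM or more in either library of a comparison are called measured, and those among them with a ratio of at least 1.5-fold and an interval excluding 1 are called higher or lower. Counts come from 3′ ends, so levels are compared between libraries or clusters, not between genes. The 4 comparisons share libraries and are not independent of each other.

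**Figure D1:**
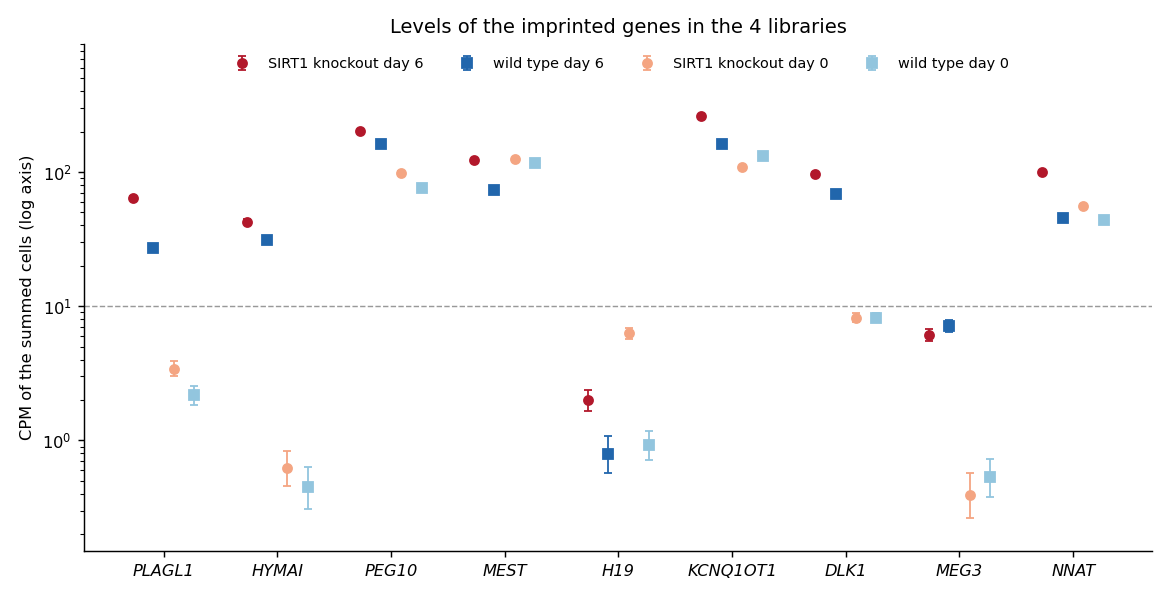
Level of each gene in each library as CPM of the summed cells (log axis), for the SIRT1 knockout at day 6, wild type at day 6, SIRT1 knockout at day 0 and wild type at day 0; bars are exact 95% Poisson intervals and the dashed line is the 10 CPM minimum. PLAGL1, HYMAI and DLK1 stood below 10 CPM at day 0 and above it at day 6 in both genotypes, while H19 stood at 6.29 CPM in the knockout at day 0 and at 0.797 to 1.99 CPM in the other libraries; PEG3, at 0 UMIs throughout, is not drawn.

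The widest changes were those between days. PLAGL1, HYMAI and DLK1, all below 10 CPM at day 0, were 8.36-fold to 69.3-fold higher at day 6 in both genotypes, and PEG10 was about 2-fold higher in both. At day 6 PLAGL1, NNAT, MEST and KCNQ1OT1 were also 1.61-fold to 2.37-fold higher in knockout than in wild-type cells. At day 0 no measured gene of the 10 passed 1.5-fold between the genotypes.

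In the knockout, 6 of 7 measured genes were higher at day 6 than at day 0, 0 were lower and MEST was neither. PLAGL1, HYMAI and DLK1 passed the 10 CPM minimum only at day 6 in both genotypes, so they could only be called higher or neither. The counts and medians of the 7 genes between days include them and are no independent sign of a rise. Over all 9368 genes measured there, 13.9% were higher and 20.9% lower, 34.7% in either direction. In wild type 4 of 7 were higher (PLAGL1, HYMAI, DLK1 and PEG10), MEST was lower, and KCNQ1OT1 and NNAT were neither, while of all 9324 measured genes 11.7% were higher and 37.2% lower, 48.9% in either direction. The median log2 ratio of the 7 genes was 1.26 in the knockout and 1.09 in wild type, beside -0.09 and -0.35 for all measured genes in the knockout and in wild type. Scaling by TMM factors, which centre on the bulk of genes, moved the all-gene median by 0.14 in the knockout and 0.45 in wild type. It changed the share of all calls that were higher to 55.1% in place of 39.9% in the knockout and to 58.1% in place of 24.0% in wild type. Under TMM the count of higher genes among the 7 was 6 in the knockout and 5 in wild type, and MEST was no longer lower.

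At day 6, 4 of 7 measured genes were higher in knockout cells and 0 were lower, where 17.4% of all 8723 measured genes were higher and 4.36% lower, 21.8% in either direction. The median log2 ratio of the 7 genes was 0.69, beside 0.25 for all measured genes. TMM scaling lowered the all-gene median by 0.22, gave a share of all calls that were higher of 47.3% in place of 80.0%, and left PLAGL1 and NNAT as the 2 higher genes, with log2 ratios of 1.03 and 0.92. MEST and KCNQ1OT1 then had log2 ratios of 0.53 and 0.48, still positive and short of 1.5-fold. Of all measured genes 7.22% were higher and 8.04% lower at day 6 under TMM scaling. At day 0, 0 of 4 measured genes were higher and 0 lower, where 1.48% of all 9095 measured genes were higher and 2.05% lower, 3.53% in either direction. The medians were 0.22 for the 4 genes and -0.01 for all. TMM scaling gave a share of calls that were higher of 58.1% in place of 42.1%. PEG10, MEST and NNAT had ratios of 1.30, 1.08 and 1.27 there and KCNQ1OT1 0.827.

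**Figure D2:**
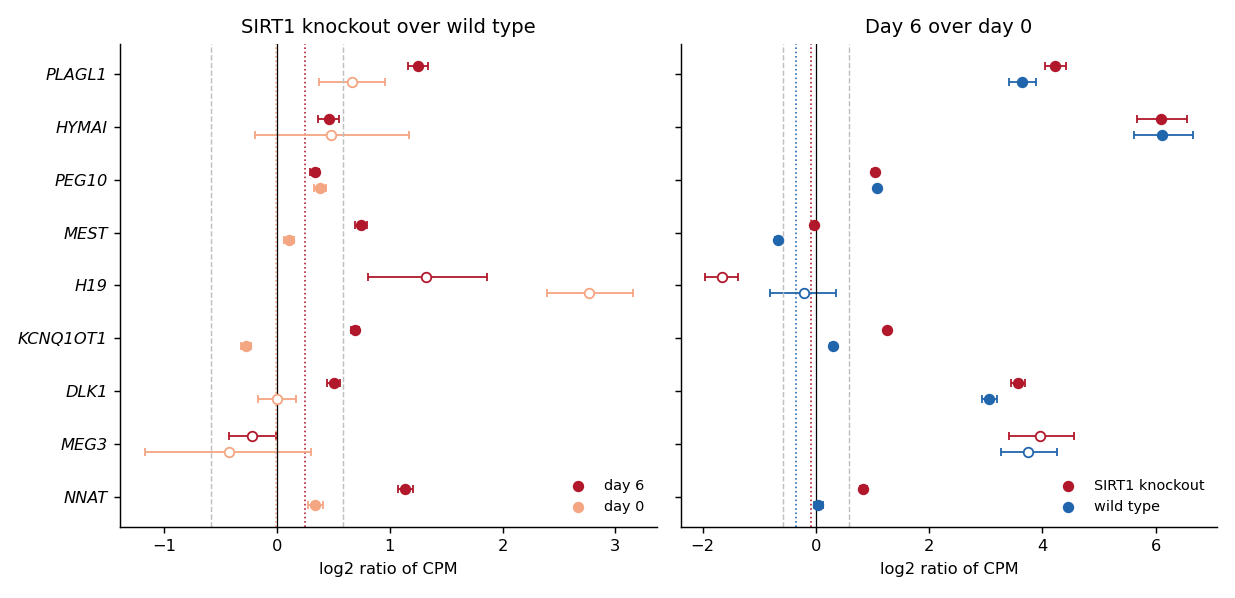
Log2 ratio of CPM for each gene, knockout over wild type (left: day 6 dark, day 0 light) and day 6 over day 0 (right: knockout red, wild type blue), with exact 95% intervals; open points are genes below 10 CPM in both libraries, dashed lines mark 1.5-fold and dotted lines the median of all measured genes. On the right PLAGL1, HYMAI, DLK1 and MEG3 lie above 3 in both genotypes; on the left PLAGL1 and NNAT at day 6 lie at 1.25 and 1.14.

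PLAGL1 encodes a zinc finger transcription factor that restrains the cell cycle, and HYMAI is a non-coding RNA that starts at the same place inside the PLAGL1 gene and runs on the same strand. In GENCODE for GRCh38, PLAGL1 spans chr6:143940300-144064599 and HYMAI chr6:144004916-144008262, within it. PLAGL1 stood at 64.2 CPM (62.2 to 66.1) in knockout and 27.0 CPM (25.6 to 28.5) in wild-type cells at day 6, against 3.43 CPM (3.02 to 3.88) in knockout and 2.17 CPM (1.84 to 2.53) in wild-type cells at day 0. HYMAI stood at 42.7 CPM (41.2 to 44.3) in knockout and 31.2 CPM (29.6 to 32.7) in wild-type cells at day 6, against 0.626 CPM in knockout and 0.449 CPM in wild-type cells at day 0. Both were high at day 6 and low at day 0, and the knockout library was the highest for both. The ratio of day 6 to day 0 was 18.7 (16.5 to 21.3) in the knockout and 12.5 (10.6 to 14.8) in wild type for PLAGL1, and 68.2 (51.0 to 93.4) in the knockout and 69.3 (49.2 to 101.0) in wild type for HYMAI.

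Between genotypes the pair differed. At day 6 PLAGL1 was 2.37-fold higher in knockout cells (2.23 to 2.52), while HYMAI had a ratio of 1.37 (1.29 to 1.46) and did not reach 1.5-fold. HYMAI reached it, with a log2 ratio of 0.79, when only cells with at least 8000 UMIs were used. The split of UMIs between the pair needs no scaling between libraries: PLAGL1 held 60.0% (58.9 to 61.2) of the 2 genes' UMIs in knockout and 46.5% (44.7 to 48.3) in wild-type cells at day 6. At day 0 it held 84.6% (80.0 to 88.5) in knockout and 82.8% (76.7 to 87.9) in wild-type cells. The PLAGL1 part was thus smaller at day 6 in both genotypes, and at day 6 larger in the knockout. In the 7 knockout clusters at day 6 it lay between 57.9% and 63.3%, and in the 6 wild-type clusters between 42.1% and 59.7%, where the highest was the cluster led by ANXA1 and GREM1. Because the 2 genes overlap on the same strand, UMIs from unspliced PLAGL1 RNA and from HYMAI cannot be told apart in these counts.

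The share of cells with a PLAGL1 UMI was 21.8% of knockout and 10.9% of wild-type cells at day 6, against 1.58% of knockout and 0.886% of wild-type cells at day 0, after thinning. Free RNA at an assumed 10% of a cell's UMIs would give 2.13% in knockout and 0.884% in wild-type cells at day 6, and 0.131% in knockout and 0.0158% in wild-type cells at day 0. For HYMAI the shares were 16.7% of knockout and 12.4% of wild-type cells at day 6, against 0.330% of knockout and 0.181% of wild-type cells at day 0, where free RNA would give at most 1.08% in any library. Without thinning the PLAGL1 shares were 51.1% of knockout and 21.0% of wild-type cells at day 6. The HYMAI shares were then 40.1% of knockout and 22.4% of wild-type cells at day 6. Many cells held the PLAGL1 UMIs of day 6: the top 1% of cells held 7.18% of PLAGL1 UMIs in the knockout at day 6. HYMAI was found in 20.5% of knockout cells with a PLAGL1 UMI and 15.6% of knockout cells without one at day 6, and in 18.8% and 11.7% of the same classes of wild-type cells.

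**Figure D3:**
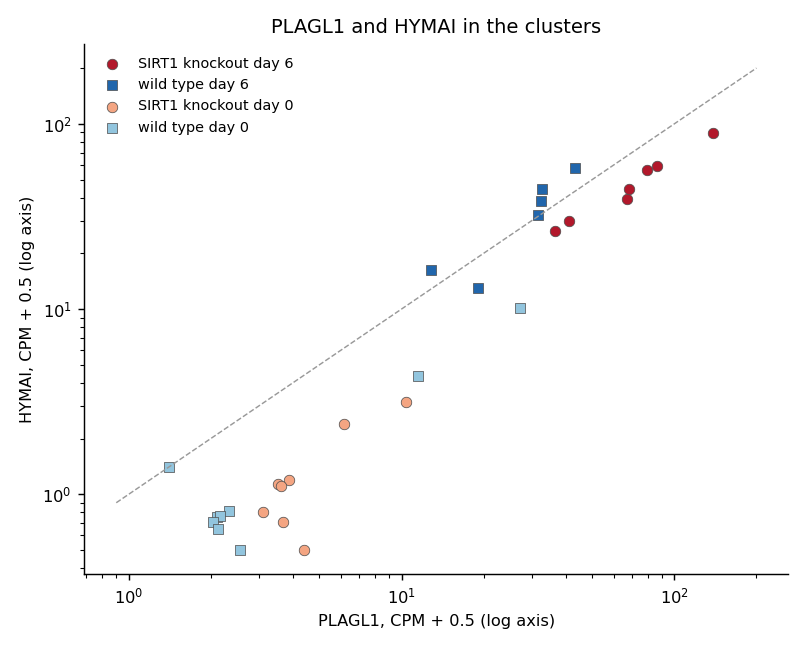
PLAGL1 (x axis) and HYMAI (y axis) levels in each cluster of at least 50 cells, as CPM + 0.5 on log axes, coloured by library; the dashed line marks equal levels. Clusters of the knockout at day 6 (dark circles) all lie below the line and 5 of the 6 clusters of wild type at day 6 (dark squares) on or above it, while most day 0 clusters lie in the lower left corner.

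Each library was clustered by itself without the 10 genes, other imprinted genes or mitochondrially encoded genes, so cluster levels of these genes were not used to draw the clusters. There were 30 clusters of at least 50 cells, 13 at day 6 and 17 at day 0. A cluster is called by a cell type only where its markers allowed it and no other class had 3 or more markers raised 2-fold, and otherwise by number and leading genes. At day 6 PLAGL1 was lowest in pluripotent-like cells, with 36.0 and 40.6 CPM in knockout clusters 6 and 3 and 12.3 CPM in wild-type cluster 2. These levels still lay above every pluripotent-like cluster of day 0, which had 2.62 to 3.89 CPM in the knockout and 1.54 to 2.06 CPM in wild type. At day 0 the highest PLAGL1 level was 26.6 CPM (16.7 to 40.3) in a wild-type cluster of 81 mesoderm-like cells, which also had the highest HYMAI level of that library, 9.67 CPM.

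**Figure D4:**
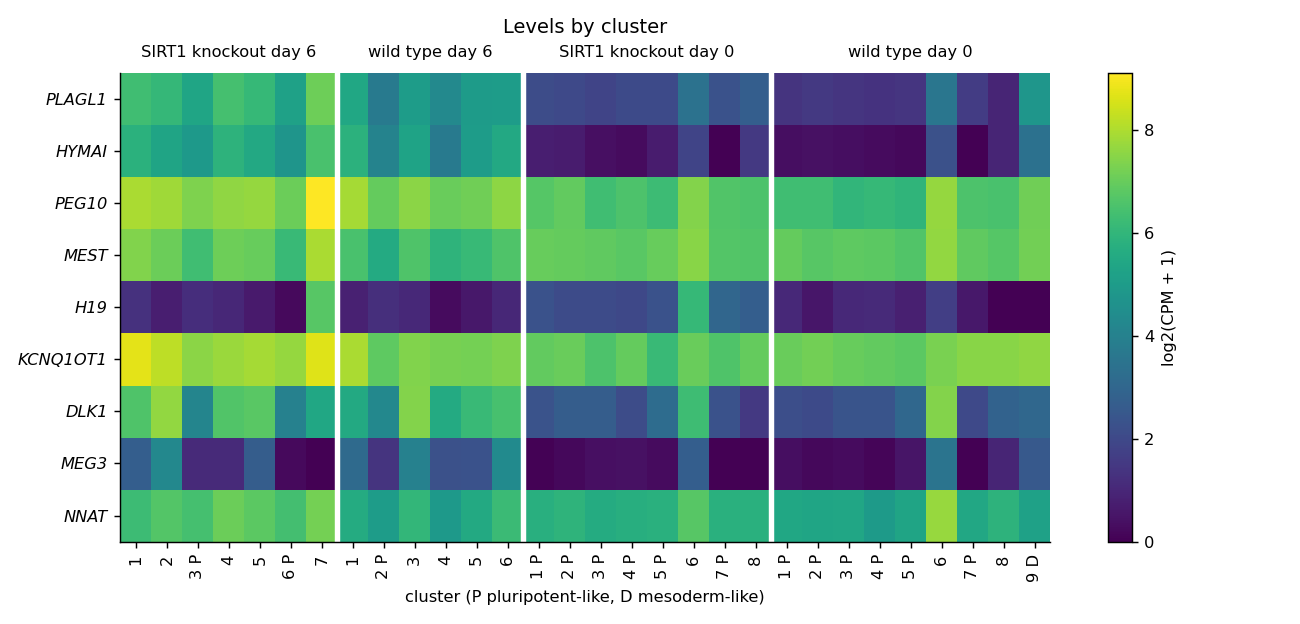
Level of each gene in each cluster as log2(CPM + 1), with clusters of the knockout at day 6, wild type at day 6, knockout at day 0 and wild type at day 0 from left to right; letters mark clusters called pluripotent-like (P) or mesoderm-like (D), and other clusters are unnamed. PLAGL1 and HYMAI separate the days in nearly every cluster, H19 stands out in cluster 6 of the knockout at day 0 and cluster 7 of the knockout at day 6 (there from 1 cell), and DLK1 in single clusters of each library.

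DLK1 encodes a membrane protein related to Notch ligands, read from the paternal copy, and MEG3 is a non-coding RNA read from the maternal copy of the same chromosome 14 domain. DLK1 spans chr14:100725705-100738224 and MEG3 chr14:100779410-100861031, both on the plus strand. DLK1 stood at 97.4 CPM (95.01 to 99.8) in knockout and 68.7 CPM (66.5 to 71.0) in wild-type cells at day 6, against 8.22 CPM in knockout and 8.23 CPM in wild-type cells at day 0. The day 0 libraries were level with each other and both day 6 libraries were far above them, by 11.8-fold (10.9 to 12.9) in the knockout and 8.36-fold (7.66 to 9.12) in wild type. MEG3 stood at 6.12 CPM (5.54 to 6.75) in knockout and 7.14 CPM (6.43 to 7.91) in wild-type cells at day 6, against 0.395 CPM in knockout and 0.531 CPM in wild-type cells at day 0. It never reached 10 CPM and so entered no count, but its ratio of day 6 to day 0 was 15.5 (10.6 to 23.5) in the knockout and 13.4 (9.64 to 19.2) in wild type.

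Between genotypes at day 6 the ratio was 1.42 (1.36 to 1.48) for DLK1 and 0.858 (0.743 to 0.991) for MEG3, neither of which passed 1.5-fold. When the knockout was limited to cells whose chromosome 20 share was at least 3%, the log2 ratio of DLK1 was 1.14 in place of 0.50, past 1.5-fold. DLK1 stood there at 151 CPM in 1192 cells, against 66.3 CPM in the 2797 knockout cells below 2.6%.

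Within libraries both genes were concentrated. At day 6 DLK1 was highest in knockout cluster 2, led by AL157396.1, SAT1 and LGI1, with 201 CPM, and in wild-type cluster 3, led by DLK1, SAT1 and HIST2H2AC, with 172 CPM. It was 15.1 and 16.7 CPM in the pluripotent-like clusters of the knockout and 18.1 CPM in that of wild type. MEG3 was highest in knockout cluster 2, with 18.2 CPM, and in wild-type clusters 6 and 3, with 19.8 and 15.1 CPM. MEG3 was also found more often in cells that had a DLK1 UMI: in 6.60% (5.11 to 8.36) of such knockout cells and 1.01% (0.705 to 1.40) of the other knockout cells at day 6, and in 8.02% (6.23 to 10.1) of such wild-type cells and 1.25% (0.945 to 1.61) of the others. Across the 30 clusters, log2 levels of the pair had a Pearson correlation of 0.83, 0.73 within the 13 day 6 clusters and 0.91 within the 17 of day 0, which share libraries and depth. Cluster 4 of the knockout at day 6, led by PTN, IGDCC3 and NEFM, had DLK1 at 99.2 CPM and MEG3 at 1.11 CPM.

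At day 0 DLK1 came from few cells. The top 1% of cells held 50.0% of its UMIs in the knockout and 50.5% in wild type. In wild type an unnamed cluster of 196 cells, led by IGFBP5, SIX3 and CDH6 and with 6 neural progenitor markers at least 2-fold above the other cells, had 169 CPM (151 to 189) and held 51.0% of the library's DLK1 UMIs in 3.54% of its cells. In the knockout, cluster 6, with 312 cells, had 77.1 CPM (67.6 to 87.7) and held 38.7% of the DLK1 UMIs in 4.29% of the cells. This cluster is mixed, with 7 mesenchymal and 3 neural progenitor markers raised 2-fold, and at the finer Leiden resolution of 1 its cells fell into a cluster of 260 neural progenitor-like cells (259 of them from cluster 6), led by LHX5-AS1, COL2A1 and DLK1, and a cluster of 53 mesenchymal-like cells, led by COL6A3, FN1 and NPY. DLK1 stood at 97.95 CPM (85.7 to 111.5) in the neural progenitor-like cells and at 8.41 CPM (3.09 to 18.3) in the mesenchymal-like cells. MEG3 had 17 of the library's 29 UMIs in the neural progenitor-like cells and 0 in the mesenchymal-like cells, and NNAT stood at 127 CPM (113 to 142) in the neural progenitor-like and 42.0 CPM (28.4 to 60.02) in the mesenchymal-like cells. The wild-type cluster of 196 cells had the highest NNAT level of day 0, 211 CPM (190 to 233), with MEST at 201 CPM and PEG10 at 203 CPM.

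H19 is a maternally expressed non-coding RNA that is abundant in embryonic mesoderm, endoderm and placenta, and lies beside the growth factor gene IGF2. It spans chr11:1995176-2001470 on the minus strand. H19 stood at 1.99 CPM (1.66 to 2.36) in knockout and 0.797 CPM (0.572 to 1.08) in wild-type cells at day 6, against 6.29 CPM (5.73 to 6.89) in knockout and 0.926 CPM (0.719 to 1.17) in wild-type cells at day 0. It was below the 10 CPM minimum in every library and so entered no count. The knockout at day 0 was the highest library, with a ratio to wild type of 6.79 (5.26 to 8.90). IGF2 had only 1 to 10 UMIs per library.

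Much of this H19 came from few cells. Cluster 6 of the knockout at day 0, led by COL3A1, COL6A3 and FN1, had 67.6 CPM (58.6 to 77.5), and held 44.4% of the library's H19 UMIs in 4.29% of its cells. At the finer resolution nearly all of them lay in the 53 mesenchymal-like cells, which had 276 CPM (239 to 318) and held 42.6% of the UMIs in 0.729% of the cells, while the 260 neural progenitor-like cells had 3.44 CPM (1.48 to 6.77). After thinning, 41.5% (28.1 to 55.9) of the mesenchymal-like and 1.15% (0.239 to 3.33) of the neural progenitor-like cells had an H19 UMI. Without cluster 6 the level was 3.65 CPM (3.22 to 4.12) and the log2 ratio to wild type 1.97 in place of 2.75. Then 1.51% of knockout cells had an H19 UMI after thinning, against 0.398% of wild-type cells, where free RNA at 10% would give 0.299% in the knockout and 0.0789% in wild type. No cluster of wild type was called mesenchymal-like, yet the summed level of 8 mesenchymal markers was 143 CPM in knockout and 435 CPM in wild-type cells at day 6, against 124 CPM in knockout and 123 CPM in wild-type cells at day 0. In each library 2 of the 8 reached 10 CPM, and LUM and POSTN were at 0 in wild type at day 6. The 1.99 CPM of the knockout at day 6 rested on a single cell: it held 71 of the library's 130 H19 UMIs and was the only one of the 69 cells of cluster 7 with an H19 UMI. That cluster is unnamed, with 7 mesenchymal and 5 neuron markers raised 2-fold and COL3A1, POSTN, POU3F2 and POU3F3 among its leading genes. Without that cell the level was 0.903 CPM, within the interval of wild type.

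KCNQ1OT1 is a paternally expressed RNA that runs against the potassium channel gene KCNQ1 and is known in mice to silence neighbouring genes of its domain, among them the cell cycle inhibitor CDKN1C and PHLDA2. It spans chr11:2608328-2699994 on the minus strand. KCNQ1OT1 stood at 262 CPM (258 to 266) in knockout and 162 CPM (159 to 166) in wild-type cells at day 6, against 109 CPM (107 to 112) in knockout and 132 CPM (129 to 135) in wild-type cells at day 0. The knockout was the higher library at day 6 and the lower one at day 0. At day 6 the ratio of knockout to wild type was 1.61 (1.57 to 1.66), and at day 0 it was 0.827 (0.802 to 0.851). The difference between these log2 ratios, day 6 less day 0, was 0.97 (counting SE 0.03). With counting SEs in brackets, NNAT had 0.80 (0.05), MEST 0.64 (0.04), PLAGL1 0.58 (0.15) and DLK1 0.50 (0.09). PEG10 had -0.05 (0.03), and HYMAI had -0.02 with a wide SE of 0.33. H19 and MEG3, below 10 CPM in every library, had -1.45 (0.32) and 0.20 (0.37). These differences are of CPM without TMM scaling. The typical measured gene shifted too: its knockout to wild-type log2 value (median) was -0.01 at day 0 and 0.25 at day 6. This shared shift is part of every difference above. With that median taken off, KCNQ1OT1 had -0.27 at day 0 and 0.44 at day 6. DLK1 then had 0.01 and 0.25 on the same days, and PEG10 had 0.39 and 0.08. From day 0 to day 6 KCNQ1OT1 was 2.40-fold higher in the knockout (2.34 to 2.47). In wild type it had a ratio of 1.23 (1.19 to 1.27), which passed 1.5-fold under TMM scaling, with a log2 ratio of 0.70.

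Within day 6 KCNQ1OT1 was highest in unnamed clusters with FN1 and FOXA2 among their leading genes. It stood at 430 CPM in knockout cluster 1 and 249 CPM in wild-type cluster 1. Levels of other genes of the KCNQ1OT1 domain are given beside it. CDKN1C stood at 73.5 CPM in knockout and 116 CPM in wild-type cells at day 6, against 17.8 CPM in knockout and 15.8 CPM in wild-type cells at day 0. PHLDA2 stood at 21.6 CPM in knockout and 85.0 CPM in wild-type cells at day 6, against 12.9 CPM in knockout and 14.2 CPM in wild-type cells at day 0. CDKN1C and PHLDA2 were thus 1.58-fold and 3.93-fold lower in knockout cells at day 6. Both were higher at day 6 than at day 0 in either genotype. KCNQ1 itself stayed at 0.875 to 1.54 CPM in the 4 libraries, and SLC22A18 of the same domain at 5.28 to 7.45 CPM. Whether KCNQ1OT1 bears on the levels of these genes was not tested.

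PEG10, derived from a retrotransposon and needed for placenta formation in mice, spans chr7:94656325-94669695. PEG10 stood at 203 CPM (200 to 207) in knockout and 161 CPM (158 to 165) in wild-type cells at day 6, against 98.9 CPM (96.6 to 101) in knockout and 76.1 CPM (74.1 to 78.1) in wild-type cells at day 0. Day 6 was higher than day 0 by 2.05-fold in the knockout (1.99 to 2.11) and 2.12-fold in wild type (2.05 to 2.20), and the knockout was 1.26 times wild type at day 6 and 1.30 times at day 0. After thinning 51.8% of knockout and 43.8% of wild-type cells had a PEG10 UMI at day 6, and 32.6% of knockout and 25.4% of wild-type cells at day 0. Free RNA would give 2.74% to 5.48% in the 4 libraries. Cluster 7 of the knockout at day 6, with 69 cells, had 555 CPM (500.2 to 615). SGCE, which shares the PEG10 domain and starts beside it on the other strand, stood at 34.6 CPM in knockout and 21.8 CPM in wild-type cells at day 6, against 15.5 CPM in knockout and 14.5 CPM in wild-type cells at day 0.

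MEST encodes a protein of the hydrolase fold family, expressed in mesoderm of the embryo, and spans chr7:130486171-130506465. MEST stood at 122 CPM (120 to 125) in knockout and 73.0 CPM (70.7 to 75.4) in wild-type cells at day 6, against 125 CPM (122 to 127) in knockout and 116 CPM (113 to 118) in wild-type cells at day 0. Wild type at day 6 was the low library, and the other 3 lay within 116 to 125 CPM. The ratio of knockout to wild type was therefore 1.68 (1.61 to 1.74) at day 6 and 1.08 (1.05 to 1.11) at day 0. In wild type day 6 was 1.59-fold lower than day 0 (1.53 to 1.65), and in the knockout the ratio was 0.980 (0.951 to 1.01). Pluripotent-like cells of day 6 had the lowest levels, 71.3 and 78.9 CPM in the knockout and 46.7 CPM in wild type. The share of cells with a MEST UMI was 38.1% of knockout and 25.6% of wild-type cells at day 6, against 38.3% of knockout and 36.5% of wild-type cells at day 0, where free RNA would give 2.61% to 4.21% in the 4 libraries.

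NNAT encodes neuronatin, a small membrane protein of the endoplasmic reticulum found in developing brain. It spans chr20:37521206-37523693, inside the gene BLCAP on the other strand. NNAT stood at 99.97 CPM (97.6 to 102) in knockout and 45.4 CPM (43.6 to 47.3) in wild-type cells at day 6, against 55.8 CPM (54.1 to 57.5) in knockout and 44.1 CPM (42.6 to 45.6) in wild-type cells at day 0. The knockout at day 6 stood apart from the other 3 libraries, 2.20-fold (2.10 to 2.31) above wild type of that day and 1.79-fold (1.72 to 1.86) above the knockout at day 0. Wild type had a ratio of 1.03 (0.977 to 1.09) between the days.

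Within the knockout NNAT was higher in the cells with the lower chromosome 20 share, unlike BLCAP. Knockout cells whose chromosome 20 share was at least 3% had NNAT at 76.8 CPM (72.7 to 81.0) at day 6, against 108 CPM (105 to 111) in the cells below 2.6%. BLCAP, in the same cells, stood at 27.8 CPM with the higher share, against 19.5 CPM below 2.6%. Both genes lie on chromosome 20 and count towards the share that split these cells, so BLCAP is no independent comparison. The log2 ratio of NNAT to wild type at day 6 was 0.76 in the cells of 3% or more, in place of 1.14 over all cells, and so stayed past 1.5-fold. BLCAP itself stood at 22.7 CPM in knockout and 26.1 CPM in wild-type cells at day 6, against 32.8 CPM in knockout and 48.5 CPM in wild-type cells at day 0. In the knockout at day 6 NNAT was highest in cluster 7, where 7 mesenchymal and 5 neuron markers were raised, with 149 CPM, and cluster 4, led by PTN, IGDCC3 and NEFM, with 135 CPM. In wild type it was highest in cluster 6, led by PTN, FABP7 and IRX1, with 73.0 CPM.

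PEG3, a zinc finger gene of chromosome 19 (chr19:56810077-56840728), had 0 UMIs among the 263637082 UMIs of all cells. As counted, this allows a level of up to 0.0114 CPM. Its domain partners ZIM2, MIMT1 and USP29 also had 0 UMIs in each library. ZIM2 overlaps PEG3 on the same strand, and how RNA from the shared stretch was counted is not given. The 0 UMIs of PEG3 and ZIM2 therefore need not mean that their RNA was absent. No ratio can be given.

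Genes whose levels followed those of the 10 genes across the 30 clusters were sought among 8781 genes by Pearson's correlation of log2(CPM + 5), as a description. For PLAGL1 the closest was HYMAI (0.97), followed by the Hedgehog receptor gene PTCH1 (0.97) and TCF25 (0.96), and for HYMAI it was PLAGL1, then NKD1 and ARID4B. PTCH1 stood at 152 CPM in knockout and 50.4 CPM in wild-type cells at day 6, against 10.2 CPM in knockout and 11.3 CPM in wild-type cells at day 0. For DLK1 the closest were GREB1L (0.95), the cartilage collagen gene COL2A1 (0.93) and SKIDA1 (0.90), and for NNAT the Wnt receptor gene FZD3 (0.94), PTPRD and SMOC1. For PEG10 they were TTC3 (0.93), ZFYVE16 and PRTG, for KCNQ1OT1 the zinc finger genes ZNF254 (0.92) and ZNF91 with ANKRD26, and for MEST, whose closest gene reached only 0.87, SARAF, NCAM1 and WDR83OS. Clusters of a library share its depth and handling, which enter these values. The 30 clusters also span both days, so differences between the days enter too. For PLAGL1 and HYMAI the correlation was 0.88 within the day 6 clusters and 0.95 within the day 0 clusters.

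Other genes of known imprinted domains gave a mixed picture. Of 76 such genes listed, 70 were in the files. At day 6, 7 of 26 measured were higher in knockout cells and 4 were lower, and their median log2 ratio was 0.26 beside 0.25 for all measured genes. Of all genes 17.4% were higher and 4.36% lower. Under TMM scaling 2 of 28 were higher and 6 lower, where 7.22% of all measured genes were higher and 8.04% lower. PHLDA2 was 3.93-fold lower (3.70 to 4.18), RTL10 1.64-fold lower (1.52 to 1.76), PON2 2.37-fold higher (2.20 to 2.56) and ZDBF2 1.89-fold higher (1.81 to 1.97). At day 0, 1 of 26 was higher and 2 were lower, where 1.48% of all measured genes were higher and 2.05% lower. They were ZDBF2 at 1.58-fold higher, GNAS-AS1 at 4.74-fold lower (4.03 to 5.59) and INPP5F at 2.08-fold lower. GNAS-AS1 lies on chromosome 20.

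Between days 9 of 26 of these genes were higher and 2 lower at day 6 in the knockout, and 7 of 27 higher and 7 lower in wild type, beside 13.9% higher and 20.9% lower of all genes in the knockout and 11.7% higher and 37.2% lower in wild type. TMM scaling gave 12 of 26 higher and 2 lower in the knockout and 11 of 29 higher and 2 lower in wild type. Their median log2 ratio was 0.24 in the knockout and 0.01 in wild type, beside -0.09 and -0.35 for all genes in the same genotypes. LPAR6, a lysophosphatidic acid receptor, was 14.2-fold higher in the knockout and 15.6-fold in wild type, and CDKN1C 4.14-fold and 7.33-fold in the same genotypes. SNHG14, the long transcript of the Prader-Willi domain on chromosome 15, was 3.28-fold lower in the knockout (3.23 to 3.33) and 4.34-fold lower in wild type (4.25 to 4.44). PHLDA2 was 5.98-fold higher at day 6 in wild type and 1.68-fold in the knockout.

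**Figure D5:**
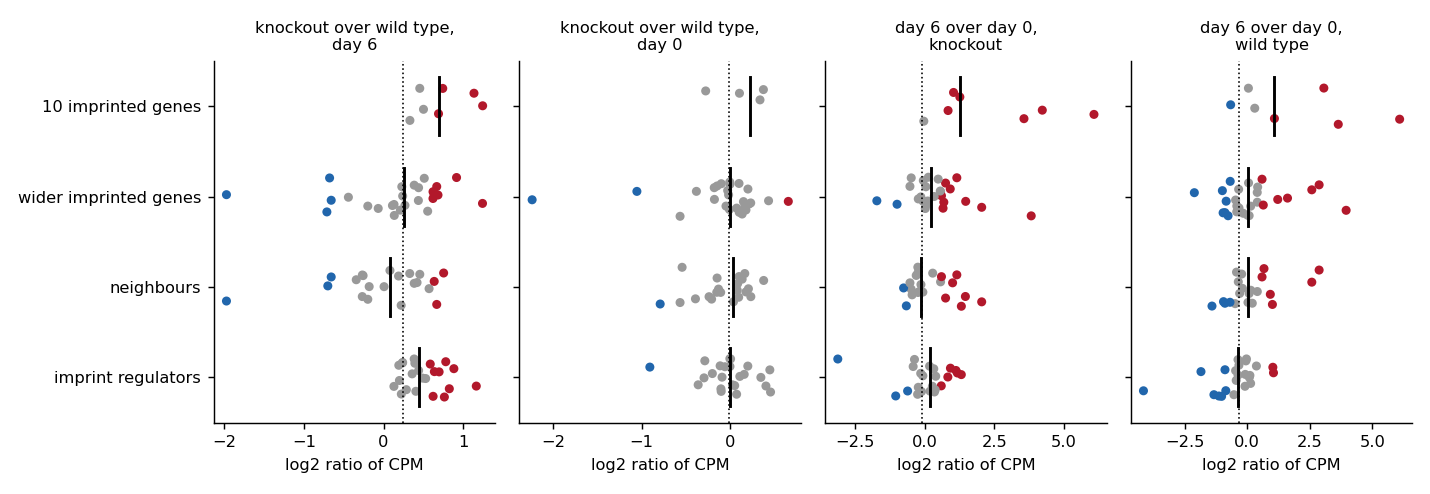
Log2 ratio of CPM of each measured gene in 4 lists (the 10 imprinted genes, other imprinted genes, genes within 250 kb of the 10, and regulators of imprints), for knockout over wild type at day 6 and day 0 and for day 6 over day 0 in the knockout and in wild type; red points were higher and blue lower past 1.5-fold, bars are list medians and dotted lines the median of all measured genes. The measured genes of the 10 have medians of 0.69, 0.22, 1.26 and 1.09 from left to right, and the other imprinted genes 0.26, 0.00, 0.24 and 0.01. The 10 genes were chosen with earlier results of these data known. PLAGL1, HYMAI and DLK1 were measured through day 6 only. The medians of the 10 genes and of the other imprinted genes are therefore no independent comparison.

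Genes within 250 kb of the 10 genes numbered 84, with 21 measured. In knockout cells at day 6, 3 of the 21 were higher and 3 lower, where 17.4% of all genes were higher and 4.36% lower. At day 0, 0 were higher and 1 lower, where 1.48% of all genes were higher and 2.05% lower. At day 6 the median log2 ratio of the 21 genes was 0.08, below the 0.25 of all measured genes. Under TMM scaling it was -0.13, with 0 higher and 3 lower, where 7.22% of all genes were higher and 8.04% lower. Between days 7 were higher and 2 lower in the knockout and 6 higher and 4 lower in wild type, against the same shares of all genes as above (13.9% and 20.9% in the knockout, 11.7% and 37.2% in wild type). Several of these genes, such as CDKN1C, PHLDA2 and SGCE, are also in the list of other imprinted genes. PHACTR2 and UTRN, beside the PLAGL1 domain, were 2.49-fold and 2.76-fold higher at day 6 than at day 0 in the knockout. Of 23 measured genes that set or keep imprints, 9 were higher and 0 lower in knockout cells at day 6, with a median log2 ratio of 0.44, beside 17.4% higher, 4.36% lower and a median of 0.25 for all measured genes. Under TMM scaling 3 were higher, where 7.22% of all genes were. They were led by NLRP2 at 2.25-fold (2.02 to 2.50), the methylcytosine dioxygenase TET1 at 1.85-fold, SMCHD1 at 1.77-fold and ATRX at 1.72-fold. At day 0, 0 were higher and 1 was lower, the de novo methyltransferase DNMT3B of chromosome 20, with 268 CPM in knockout and 502 CPM in wild-type cells. With knockout cells limited to a chromosome 20 share of at least 3%, 0 of 23 regulators were higher and 0 lower at day 0. DNMT3B was 8.67-fold lower at day 6 than at day 0 in the knockout and 17.8-fold lower in wild type. Between days these regulators counted 6 higher and 3 lower in the knockout and 2 higher and 7 lower in wild type, beside 37.2% lower of all genes there, and whether their levels bear on those of the 10 imprinted genes was not tested.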

How the data were processed

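RNA of H9 cells was read with a 10x Chromium 3′ kit, per the labels, in 4 libraries, 1 per genotype and day. The authors deposited raw counts of UMIs for all barcodes, made with Cell Ranger 6.1.2 on GRCh38 per the submitters' processing notes, while the file headers name Cell Ranger 4. The annotation, and the use of introns and strand in counting, are not given in the sources used here.

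Cells passing the limits given above held 93.1% to 95.3% of each library's UMIs. Possible doublets stayed in, because Scrublet with its own threshold marked under 0.5% of cells in every library and so had not worked. Levels carry exact Poisson intervals, ratios exact conditional binomial (Clopper-Pearson) intervals and shares exact binomial intervals, at 95% and for counting error only. A prior count of 0.5 entered log2 ratios, and 3 counts were the floor for a count of 0. Free RNA came from barcodes of 1 to 50 UMIs. Clusters used counts scaled to 10000, 2000 variable genes, 30 components, 15 neighbours and Leiden resolution 0.5 (scanpy 1.11.5, igraph 0.11.9). A cluster was named where 3 or more markers of a class were 2-fold above the other cells, with 1 of them among its 10 leading genes and fewer than 3 markers of any other class so raised, a limit set after the clusters were seen. At day 0 a cluster was also called pluripotent-like where 5 of 10 markers were each found in 50% of its cells and no other class stood out. The ratio intervals were tested on simulated counts.

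The 10 genes, the lists and the size rule were chosen with earlier results of these data known. The text names all 10 genes, up to 4 of each list per comparison with the largest ratios past 1.5-fold, and the 3 most alike genes of each of the 10 that reached 20 CPM. Domain partners, and leading genes of clusters, were added after their values were seen. Gene positions came from GENCODE on GRCh38. Alternatives, among them TMM and median-of-ratios factors, are given at the end.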

Additional observations from a re-analysis of the deposited data

How the results depend on the processing

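With TMM or median-of-ratios factors 2 of the 10 genes, not 4, were higher in knockout cells at day 6, and also 2 with a 2-fold rule. Of all measured genes 7.22% were higher there with TMM and 6.51% with median-of-ratios factors. Without a CPM minimum 2 genes, PLAGL1 and H19, were higher in the knockout at day 0, and 1 gene, H19, was lower at day 6 in the knockout. MEST, the 1 gene lower at day 6 in wild type, gave 0 with TMM or median-of-ratios factors, with a total lacking ribosomal and MT- genes, and with the 2-fold rule. The 2-fold rule lowers counts by construction, and for the other changes the cause was not tested. No called log2 ratio changed sign under any alternative run. With 8000 UMIs per cell, with knockout cells of 3% or more from chromosome 20, or without a CPM minimum, 5 genes were higher in knockout cells at day 6. Leaving out cluster 6 of the knockout at day 0, an alternative chosen after seeing the data, changed no count, and gave a log2 ratio at day 0 of 1.97 for H19 and -0.65 for DLK1. Wild-type cluster 6 of day 0 stayed in, with 308 of that library's 604 DLK1 UMIs, so this DLK1 ratio does not compare like cells. At resolution 1, 16 of 36 highest cluster levels moved past their interval. No paired analysis was possible because each group has 1 library. HYMAI and MEG3 at day 0 rest on 29 to 46 UMIs per library, which leaves wide intervals.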
